A study of Mus musculus with 6 samples.

Results

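The genes described here encode 8 proteins that carry the signal of the T-cell receptor through its first steps, namely Lck, Zap70, Lat, Lcp2, Ptpn6, Ptprc, Plcg1 and Vav1. The rule that picks them uses the gene symbol and no measured value, but the genes and the lists set beside them were chosen with earlier results of these data known. Each of the 8 was found once among the 54532 genes of the deposited table. The libraries are RNA sequencing of mouse T cells that had shared a culture with ID8, an ovarian cancer line of the mouse. Both groups held T cells isolated with a pan-T kit from spleens of young adult C57BL/6 mice, kept with IL-2 and pre-activated with beads that carry antibodies to CD3 and CD28. In the cisplatin group (3 libraries) the ID8 cells had been pretreated with 40 µM cisplatin, and in the control group (3 libraries) with PBS. No library of T cells or of ID8 cells alone was analysed here. The study calls its replicates biological and its samples independent, but neither it nor the labels say whether the libraries of a group came from separate mice or cultures, so the p-values measure only the spread between these libraries, which may be technical.

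When the T-cell receptor binds its ligand, the kinase Lck, held at the CD4 and CD8 coreceptors and kept active by the phosphatase CD45 (Ptprc), phosphorylates the CD3 chains. The kinase Zap70 docks there and phosphorylates the adaptors Lat and SLP-76 (Lcp2), which gather phospholipase C gamma 1 (Plcg1) and the exchange factor Vav1 and so open the calcium, Ras and actin branches. The phosphatase SHP-1 (Ptpn6) removes phosphates from these proteins and dampens the signal. Lck, Zap70 and Lat are used chiefly by T cells and natural killer cells, whereas Ptprc, Ptpn6, Vav1 and Lcp2 are used in several blood lineages and Plcg1 in most cell types.

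The 6 libraries held 30606569 to 32169496 reads on genes, as rebuilt from the values. Levels are given in FPKM (fragments scaled by gene length and by a divisor of each library). The label of T cells was checked against markers. All 12 T-cell identity genes were measured above 0 in each library, with summed levels of 957 to 1047 FPKM in the control and 1546 to 1611 FPKM in the cisplatin libraries. The libraries also held RNA of other cells. The 7 B-cell markers summed to 1648 to 1730 FPKM in the control and 3559 to 3641 FPKM in the cisplatin libraries, most of it Ighm, the heavy chain of IgM. The 10 myeloid markers summed to 65.4 to 69.8 FPKM and to 128 to 146 FPKM. The 10 markers of ID8 tumour cells (keratin, mesothelial and contractile genes) summed to 1261 to 1322 FPKM in the control and 182 to 186 FPKM in the cisplatin libraries, and Tpm2 was at 0 in 1 library. The 3 natural killer cell markers summed to 1.11 to 2.01 FPKM and to 1.90 to 2.34 FPKM. In such mixed RNA, more cells of a type and more RNA per cell cannot be told apart.

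All 8 genes were higher in the cisplatin group in FPKM as deposited, by 1.18-fold (Plcg1) to 2.05-fold (Ptpn6), but when the libraries were centred on 12 T-cell identity genes the values of Lck, Zap70, Ptprc and Plcg1 turned to or below 0, and when they were centred on the 4 CD3 chains that of Plcg1 did. The test was limma on log2(FPKM + 0.1) over the 15874 genes that averaged 0.5 FPKM or more, and a gene is named higher or lower at a Benjamini-Hochberg adjusted p under 0.05. Of all tested genes, 27.5% were higher and 29.0% lower by this rule. With a fold change of at least 2 as a further demand, as the study used, 1 of the 8 genes (Ptpn6) was called higher, beside 4.11% of all tested genes called higher and 12.8% called lower. The median log2 fold change of the 8 genes was 0.63, and that of all tested genes was 0.03. For each of the 8 genes every cisplatin library lay above every control library, which held for 31.9% of all tested genes.

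**Figure D1:**
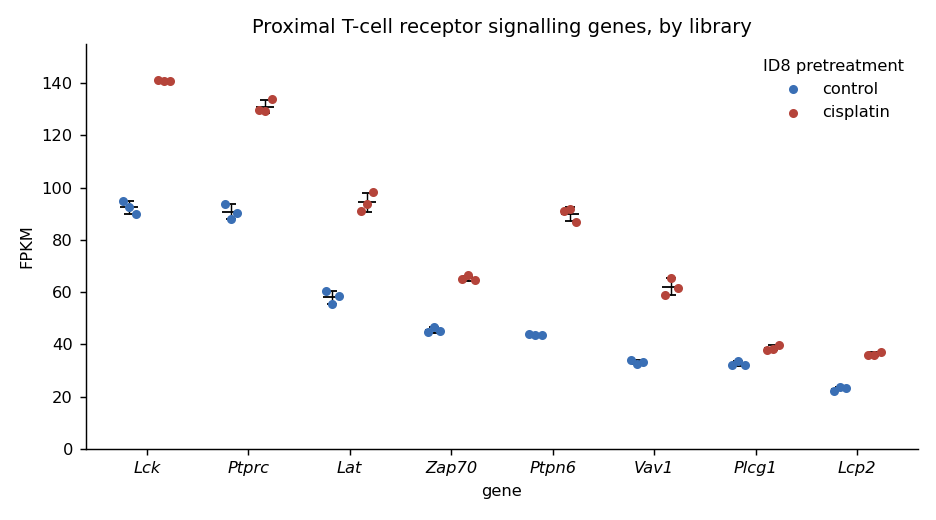
Level of each gene in FPKM (vertical axis) in each library, with control libraries in blue and cisplatin libraries in red, and bars for the mean ± SD of 3 libraries. The blue and red points do not overlap for any of the 8 genes as deposited, from 32.6 against 38.6 FPKM for Plcg1 to 43.8 against 89.9 FPKM for Ptpn6, while the change of Lck, Zap70, Ptprc and Plcg1 turned to or below 0 after centring on T-cell identity genes and that of Plcg1 after centring on CD3 chains.

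Ptprc, on the minus strand at chr1:138062861-138175708 (GRCm38, as all coordinates here), encodes the phosphatase CD45, which keeps Lck ready to act. Its level was 93.8, 88.0 and 90.4 FPKM in the control libraries and 129.6, 129.5 and 133.7 FPKM in the cisplatin libraries. The cisplatin libraries were all above the control libraries, and the gap was many times the spread within either group. With means of 90.7 ± 2.93 and 130.9 ± 2.44 FPKM (SD over 3 libraries, as throughout), Ptprc had a log2 fold change of 0.53 (SE 0.03, limma adjusted p = 2.1e-05). The value counts all splice forms of the gene together.

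Lck, on the minus strand at chr4:129548344-129573641, encodes the kinase that starts the cascade and had the highest mean FPKM of the 8 genes in both groups. Its level was 94.9, 92.6 and 89.7 FPKM in the control libraries and 141.2, 140.8 and 140.7 FPKM in the cisplatin libraries. The groups did not overlap, and the cisplatin libraries lay closer together than the control libraries. The log2 fold change was 0.61 (95% interval 0.54 to 0.68, limma adjusted p = 6.1e-06), or 1.52-fold.

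Zap70, on the plus strand at chr1:36761798-36782818, encodes the kinase that binds the phosphorylated CD3 chains. It was measured at 44.6, 46.6 and 45.2 FPKM in the control libraries and at 64.9, 66.5 and 64.5 FPKM in the cisplatin libraries, again without overlap. This was a log2 fold change of 0.52 (95% interval 0.45 to 0.59, limma adjusted p = 1.3e-05).

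The sequences just upstream of the start sites of these kinases, and of the 3 genes whose change differed most from that of Lck (Ptpn6, Vav1 and Plcg1), are printed to show what the genes share and where they differ. Each is a stretch of 150 bases from RefSeq (GRCm38.p6), read 5′ to 3′ on the strand of the gene: Lck at chr4:129573642-129573791 and, for the second of its 2 start sites, at chr4:129558392-129558541 (minus strand), the first of 3 start sites of Zap70 at chr1:36761648-36761797 (plus), Ptpn6 at chr6:124738715-124738864 (minus), Vav1 at chr17:57278950-57279099 (plus) and Plcg1 at chr2:160731150-160731299 (plus). Capitals mark AGGAAG, the core letters that ETS factors bind, and GGGCGG, a GC box bound by Sp factors, each on either strand (CTTCCT and CCGCCC on the other).
Lck: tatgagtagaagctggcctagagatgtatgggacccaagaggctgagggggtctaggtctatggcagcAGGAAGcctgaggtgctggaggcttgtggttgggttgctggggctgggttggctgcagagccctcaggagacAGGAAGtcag
Lck start site 2: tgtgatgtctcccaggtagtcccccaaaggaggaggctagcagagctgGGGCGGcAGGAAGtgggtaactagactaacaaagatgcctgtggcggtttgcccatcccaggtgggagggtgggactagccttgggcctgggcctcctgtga
Zap70: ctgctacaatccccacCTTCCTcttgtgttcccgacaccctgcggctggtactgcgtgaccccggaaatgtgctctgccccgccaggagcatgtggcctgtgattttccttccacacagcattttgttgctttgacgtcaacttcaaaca
Ptpn6: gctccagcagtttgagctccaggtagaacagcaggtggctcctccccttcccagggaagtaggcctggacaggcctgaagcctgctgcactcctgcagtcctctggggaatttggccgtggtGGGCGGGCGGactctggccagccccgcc
Vav1: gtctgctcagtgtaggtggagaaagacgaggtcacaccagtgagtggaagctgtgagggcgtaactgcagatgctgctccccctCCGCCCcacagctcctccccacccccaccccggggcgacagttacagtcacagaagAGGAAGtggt
Plcg1: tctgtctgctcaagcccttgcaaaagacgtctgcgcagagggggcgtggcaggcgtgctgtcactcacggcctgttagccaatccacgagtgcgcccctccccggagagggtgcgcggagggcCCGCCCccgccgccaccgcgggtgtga

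Of the stretches of Zap70 not printed, that of start site 2 holds AGGAAG and that of start site 3 holds neither motif. All 8 genes were matched to RefSeq, with 12 start sites among them, and each promoter window ran from 250 bases before to 50 bases after a start site. AGGAAG was found in 10 of the 12 windows and in 35.4% of the 32851 mouse promoter windows of the same length. The windows of the 2 Ptprc start sites overlap, so 1 match can count in both. By gene, AGGAAG was found in 7 of the 8, and Plcg1 was the gene without it. A gene here has up to 3 windows, so the count by gene is not comparable with the share of windows. GGGCGG was found in 4 windows of 4 genes (Lck, Ptpn6, Plcg1 and Vav1) and in 35.7% of all windows. TGTGGT, the letters of RUNX factors (ACCACA on the other strand), was found in 3 windows of 3 genes (Lck, Zap70 and Lat) and in 16.8% of all windows. TATAAA, sought on both strands, was found in 1 window, that of a Ptprc start site, and in 13.6% of all windows. The share of G and C was 72.0% in the window of Plcg1 and 33.7% in that of the same Ptprc start site, around a median of 52.7% over all windows. Such matches of letters describe the sequence only, and binding was not measured.

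Lat, on the minus strand at chr7:126363824-126369570, encodes the membrane adaptor on which the signalling complex is built. It was measured at 60.3, 55.3 and 58.3 FPKM in the control libraries and at 91.1, 93.5 and 98.3 FPKM in the cisplatin libraries. All cisplatin libraries were higher than all control libraries. Lat thus had a log2 fold change of 0.70 (95% interval 0.59 to 0.81, limma adjusted p = 2.1e-05), or 1.63-fold.

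Lcp2, on the plus strand at chr11:34046920-34092295, encodes SLP-76, the soluble adaptor that joins Lat. It had the lowest mean FPKM of the 8 genes in both groups, at 22.3, 23.6 and 23.3 FPKM in the control libraries and 36.0, 36.0 and 37.2 FPKM in the cisplatin libraries. The groups were well apart. Lcp2 thus had a log2 fold change of 0.66 (95% interval 0.57 to 0.74, limma adjusted p = 9.5e-06). Even here at least 2984 reads were counted per library, so counting error was small beside the change.

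Plcg1, on the plus strand at chr2:160731300-160775760, encodes the phospholipase that makes the messengers of the calcium and diacylglycerol branches. It changed least, from 32.2, 33.7 and 31.9 FPKM in the control libraries to 37.8, 38.4 and 39.7 FPKM in the cisplatin libraries. The groups did not overlap, but the lowest cisplatin library stood only a little above the highest control library. The log2 fold change was 0.24 (95% interval 0.16 to 0.33, limma adjusted p = 0.0013) as deposited, and it was -0.37, -0.34 and -0.22 when the libraries were centred on T-cell identity genes, leukocyte genes or CD3 chains. Plcg1 is used in most cell types. The ID8 markers summed to 1261 to 1322 FPKM in the control and 182 to 186 FPKM in the cisplatin libraries. The part of tumour-cell RNA in the values of Plcg1 was not tested.

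Vav1, on the plus strand at chr17:57279100-57328031, encodes the exchange factor that switches on Rac and the actin cytoskeleton. Its level was 33.88, 32.46 and 33.05 FPKM in the control libraries and 59.0, 65.5 and 61.6 FPKM in the cisplatin libraries. The cisplatin libraries were all far above the control libraries and differed more among themselves. The log2 fold change was 0.90 (95% interval 0.79 to 1.01, limma adjusted p = 6.3e-06), or 1.87-fold, so Vav1 was higher without reaching the fold change of 2.

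Ptpn6, on the minus strand at chr6:124720707-124738714, encodes SHP-1, the inhibitory phosphatase of the group. It was measured at 44.1, 43.5 and 43.7 FPKM in the control libraries and at 90.9, 91.9 and 86.9 FPKM in the cisplatin libraries. The groups were farther apart than for any other of the 8 genes in log2 fold change. Its log2 fold change was 1.04 (95% interval 0.96 to 1.11, limma adjusted p = 7.3e-07), or 2.05-fold with an interval of 1.95 to 2.16 that spans the threshold. Ptpn6 and Vav1 are used by B cells and myeloid cells as well as by T cells. In the same libraries 7 of 7 B-cell markers and 8 of 10 myeloid markers were higher (1 lower, Cd14), with medians of 0.66 and 1.30 in log2 fold change, and their part in the levels of Ptpn6 and Vav1 was not tested.

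FPKM is scaled to the length of all annotated exons of a gene together, which was 18313 bases for Ptprc and 2929 bases for Lck. Reads per library ran from 48316 to 79383 for Ptprc and from 8065 to 13670 for Lck. The order of the genes in FPKM therefore depends on that length too, and the lengths of the transcripts present were not measured. In the control group the order of mean FPKM was Lck, Ptprc, Lat, Zap70, Ptpn6, Vav1, Plcg1 and Lcp2, where Lck and Ptprc overlapped, as did Vav1 and Plcg1. In the cisplatin group it was Lck, Ptprc, Lat, Ptpn6, Zap70, Vav1, Plcg1 and Lcp2, where Lat overlapped with Ptpn6 and Zap70 with Vav1. Ptpn6 thus stood below Zap70 in all control libraries (43.8 ± 0.290 against 45.4 ± 1.004 FPKM) and above it in all cisplatin libraries (89.9 ± 2.67 against 65.3 ± 1.04 FPKM). Vav1 and Plcg1 could not be told apart in the control group (33.1 ± 0.714 and 32.6 ± 0.975 FPKM) and were apart in the cisplatin group (62.0 ± 3.28 and 38.6 ± 0.966 FPKM).

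Such shifts between genes do not depend on how the libraries are scaled, and they were measured as the ratio of each gene to Lck within a library. The log2 ratio of Ptpn6 to Lck was -1.10, -1.09 and -1.04 in the control libraries and -0.63, -0.61 and -0.69 in the cisplatin libraries, a difference of 0.43 (SE 0.03). That of Vav1 was -1.48, -1.51 and -1.44 against -1.26, -1.10 and -1.19, a difference of 0.29 (SE 0.05). That of Plcg1 was -1.55, -1.45 and -1.49 against -1.90, -1.87 and -1.82, a difference of -0.37 (SE 0.04). For these 3 ratios the groups did not overlap. The two-sided exact permutation test gave p = 0.1, the smallest that 3 against 3 libraries allow (adjusted over 7 ratios, 0.233 by permutation). How many of all tested genes also lacked overlap in their ratio to Lck was not counted, so the 3 genes cannot be called unusual. Centred on T-cell identity genes, where Lck stood at -0.0024, 4.16% of all tested genes were higher and 67.7% lower. The ratios of Zap70, Lat, Lcp2 and Ptprc to Lck changed by -0.09, 0.09, 0.05 and -0.08 and overlapped between groups (exact permutation p of 0.2, 0.2, 0.5 and 0.2). Ptpn6, Vav1 and Plcg1 are also used by other cells of the mixed RNA, and the part of those cells in the ratios was not tested.

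**Figure D2:**
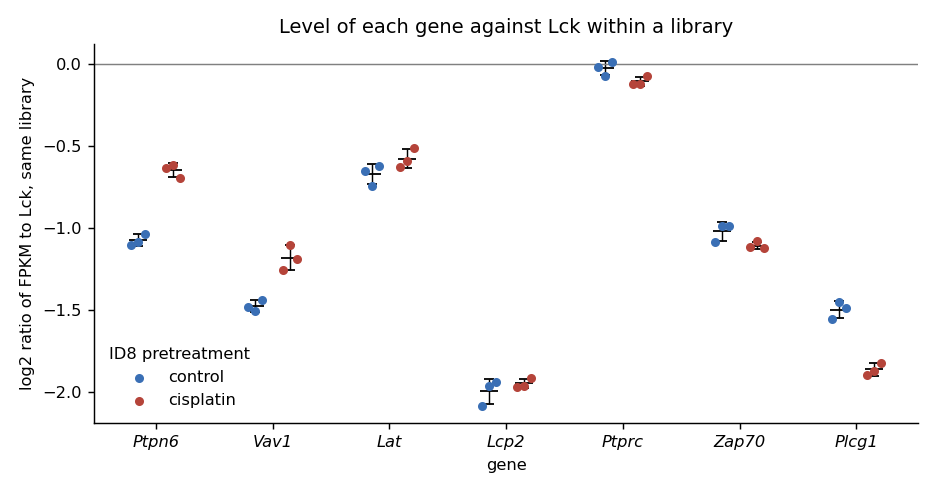
Log2 ratio of each gene's FPKM to that of Lck in the same library (vertical axis), with control libraries in blue, cisplatin libraries in red and bars for the mean ± SD of 3 libraries. Ptpn6 and Vav1 moved up against Lck by 0.43 and 0.29, Plcg1 moved by -0.37, and the points of the other genes overlap.

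The 8 genes were next read against genes that mark the cells. The 12 T-cell identity genes were all higher, with a median log2 fold change of 0.61 and a range from 0.19 (Cd3g) to 1.09 (Trat1), and the 12 leukocyte genes were all higher, with a median of 0.56 and a range from 0.41 to 0.76. Lck, at 0.61, had 6 T-cell identity genes below it and 6 above. Ptpn6 and Vav1 stood above 11 of the 12 T-cell identity genes and all 12 leukocyte genes, whereas Plcg1 stood below 11 and 12 of them. The 8 tested ID8 markers were all lower, with a median of -2.41, and Krt19, a keratin, went from 646 ± 18.1 to 52.9 ± 1.46 FPKM. The part of a changed T-cell to tumour-cell ratio in the levels of the 8 genes, as deposited or centred, was not tested. The number of cells is not in the table.

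When each library was centred on the mean of the T-cell identity genes, 2 of the 8 genes were higher (Ptpn6 and Vav1) and 1 was lower (Plcg1), beside 4.16% of all tested genes higher and 67.7% lower. The log2 fold change of Ptpn6 was then 0.43 (95% interval 0.32 to 0.53, limma adjusted p = 1.1e-04), that of Vav1 0.29 (0.16 to 0.43, limma adjusted p = 0.0027) and that of Plcg1 -0.37 (-0.47 to -0.27, limma adjusted p = 1.6e-04). For the other genes the intervals were -0.12 to 0.11 for Lck, -0.05 to 0.23 for Lat, -0.04 to 0.13 for Lcp2, -0.20 to 0.04 for Ptprc and -0.17 to -0.0034 for Zap70 (limma adjusted p of 0.97, 0.21, 0.29, 0.19 and 0.060). Centred on the leukocyte genes, the same 3 genes passed in the same directions, beside 4.61% of all tested genes higher and 66.7% lower. Centred on the 4 CD3 chains, a choice made after the data were seen, 5 of the 8 genes were higher and Plcg1 was lower. Among the 15874 tested genes, 996 were higher and 9242 lower under this centring. Lck was then at 0.14, Lat at 0.24 and Lcp2 at 0.19 (limma adjusted p of 0.047, 0.0082 and 0.0090), Ptpn6 at 0.57 and Vav1 at 0.44, while Zap70 and Ptprc were at 0.06 each without passing (limma adjusted p of 0.28 and 0.32). The signs of Zap70 and Ptprc thus turned with the list used for centring, though neither gene passed under any of the 3 lists. Lck was at -0.0024 (T-cell identity), 0.02 (leukocyte) and 0.14 (CD3 chains). The directions of Lat, Lcp2, Ptpn6, Vav1 and Plcg1 were the same under all 3 lists. Of these, Lat and Lcp2 passed only under the CD3 chains. Centring moves every gene of a library by one amount, and the median of all tested genes then stood at -0.58 (T-cell identity) and -0.56 (leukocyte) in place of 0.03, so the distance of each gene from that median stayed as it was.

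**Figure D3:**
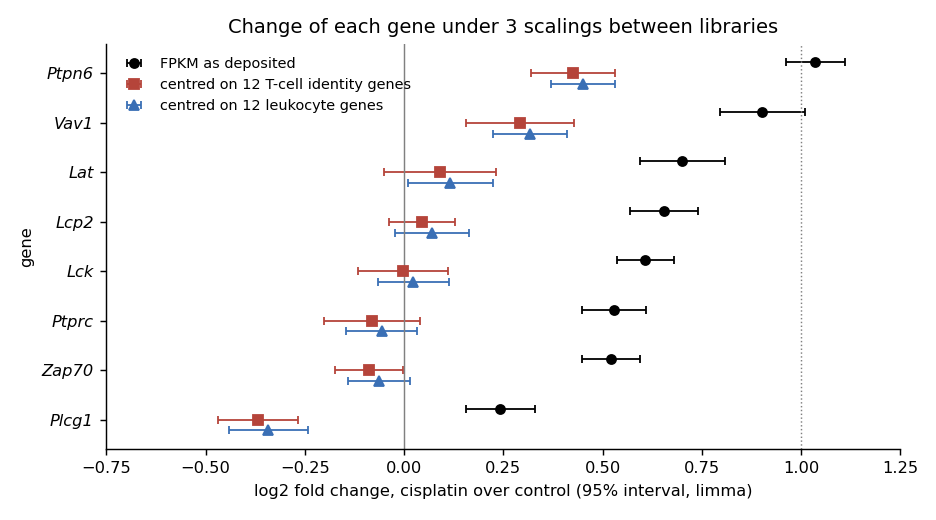
Log2 fold change of each gene, cisplatin over control (horizontal axis), with its 95% limma interval, as deposited (black circles) and centred on 12 T-cell identity genes (red squares) or 12 leukocyte genes (blue triangles), with a dotted line at a fold change of 2. All 8 black circles lie right of 0, while after centring Ptpn6 (0.43 and 0.45) and Vav1 (0.29 and 0.32) stay right of 0, Plcg1 (-0.37 and -0.34) lies left of it, and the others lie near it. Centring on CD3 chains is not drawn, and there Lck, Lat and Lcp2 were also higher.

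Around the 8 genes, 94 of 97 listed genes of the pathway could be tested, and 66 of them were higher, 16 lower and 12 neither in FPKM as deposited, whereas centred on T-cell identity genes 11 were higher and 54 lower. Of all tested genes, 27.5% were higher and 29.0% lower as deposited, and 4.16% and 67.7% when centred, so the share of pathway genes that were lower when centred was under that of all genes. With a fold change of at least 2 as deposited, none of the 94 was called higher and 5 were called lower. Beside them, 4.11% of all tested genes were called higher and 12.8% lower. Above the 8 genes in the cascade stand the receptor chains, coreceptors and CD28, of which 11 of 11 were higher with a median log2 fold change of 0.53. The lists are not separate evidence, since 6 of the 11 (Cd3d, Cd3e, Cd3g, Cd247, Trac and Trbc2) are among the 12 T-cell identity genes and enter the centring on them. Trac, the alpha constant chain, went from 138 ± 5.84 to 249 ± 5.74 FPKM (log2 fold change 0.85, limma adjusted p = 5.0e-06), and Cd247, the zeta chain to which Zap70 binds, from 16.5 ± 0.623 to 28.2 ± 0.690 FPKM (0.77). Cd3g changed least, from 64.5 ± 3.33 to 73.7 ± 3.90 FPKM (0.19, limma adjusted p = 0.021). The coreceptors that hold Lck were close to each other, with 0.41 for Cd4 and 0.43 for Cd8a in log2 fold change. Trbc1 and Trbc2 are near-identical, and reads could be split between them.

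Of the 14 other kinases and adaptors that act beside the 8 genes, 9 were higher and 3 lower (median 0.37). Sh2d2a, an adaptor that binds Lck, went from 21.8 ± 0.818 to 41.5 ± 0.589 FPKM (log2 fold change 0.93, limma adjusted p = 2.5e-06). Fyn, the other Src-family kinase of the receptor, had 0.70, and Grap2, the adaptor that links Lat to Lcp2, had 0.73, both close to Lat itself. The lower genes were Themis, Sos1 and Nck2. Themis, an adaptor of thymocyte signalling, fell from 18.5 ± 0.730 to 12.2 ± 0.495 FPKM (-0.60, limma adjusted p = 6.5e-05). Sos1, a Ras exchange factor, had -0.44, and Nck2, an actin adaptor, had -0.42. In the same libraries the 7 B-cell markers rose and the 8 tested ID8 markers fell. The part of other cells in the values of these kinases and adaptors was not tested.

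Of 18 further genes listed here as negative regulators, 14 were higher and 1 lower, with a median of 0.43. The largest changes were those of Sla2 and Sla, adaptors that promote the loss of receptor chains. Sla2 went from 13.2 ± 0.184 to 26.4 ± 0.744 FPKM (log2 fold change 0.995, limma adjusted p = 1.7e-06), just short of the fold change of 2, and Sla from 17.7 ± 0.790 to 33.1 ± 0.859 FPKM (0.91). Csk and Ptpn22, which act together to hold Lck inactive, had 0.47 and 0.56, near the 0.61 of Lck. Ptpn11, the closest relative of Ptpn6, was lower, from 24.4 ± 0.273 to 20.8 ± 0.430 FPKM (-0.23, limma adjusted p = 0.0010). These values come from the same mixed RNA, and the part of other cells in them was not tested.

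Below Plcg1 and Vav1, 15 of 25 components were higher and 6 lower, and their median of 0.22 was the lowest of the pathway lists. Pik3cd, a lipid kinase subunit of leukocytes, went from 96.0 ± 0.382 to 154 ± 0.667 FPKM (log2 fold change 0.68, limma adjusted p = 1.3e-06), with Malt1 (0.64), Nfatc1 (0.62) and Prkcq (0.56) beside it, of the NF-kB, calcineurin and diacylglycerol branches. Map2k1, the kinase MEK1, fell from 74.0 ± 1.34 to 30.1 ± 0.972 FPKM (-1.30, limma adjusted p = 4.5e-07) and was the gene of this list called lower. Mapk3, the kinase ERK1, fell from 57.3 ± 0.590 to 29.2 ± 0.431 FPKM (-0.97), and the calcium channels Itpr3 and Orai1 by 0.79 and 0.68 on the log2 scale. In contrast, Map2k2 (0.46), Itpr1 (0.54), Itpr2 (0.43) and the calcium sensor Stim1 (0.20) were higher. Many of these genes are used in most cell types, and the 8 tested ID8 markers fell in the same libraries. The part of tumour-cell RNA in these values was not tested.

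Genes that receptor signalling induces moved both ways. Of 16 listed, 13 could be tested, 8 were higher and 3 lower (median 0.35), and Il2, Ifng and Fosb lay under the minimum level. Irf4, a transcription factor that follows receptor strength, went from 15.6 ± 0.720 to 30.9 ± 0.546 FPKM (log2 fold change 0.98, limma adjusted p = 3.8e-06), and Egr3 from 4.74 ± 0.253 to 8.73 ± 0.552 FPKM (0.87). Egr1 fell from 17.2 ± 0.558 to 8.28 ± 0.569 FPKM (-1.05, limma adjusted p = 1.2e-05) and Fos from 6.26 ± 0.521 to 1.95 ± 0.379 FPKM (-1.64), and both were called lower. Nr4a1, a gene induced within the first hours of stimulation, was at 4.17 ± 0.257 and 4.15 ± 0.277 FPKM, a log2 fold change of -0.01 (limma adjusted p = 0.94). The other lower gene was Tnfrsf9, a costimulatory receptor of activated lymphocytes, which went from 21.99 ± 0.881 to 19.1 ± 0.919 FPKM (-0.20, limma adjusted p = 0.012). Egr1 and Fos fell in the same libraries as the 8 tested ID8 markers, while the 7 B-cell markers rose there. The part of other cells in the values of the listed genes was not tested.

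Relatives of the 8 genes from other cell types gave a further comparison. Of 13 tested, 9 were higher and 3 lower (median 0.48). The Src-family kinase Blk of B cells went from 16.01 ± 0.0458 to 29.1 ± 1.74 FPKM (log2 fold change 0.86, limma adjusted p = 1.2e-05), while Lck had 0.61. Src and Yes1, the kinases of the same family in most tissues, fell from 17.9 ± 1.67 to 5.64 ± 0.170 FPKM (-1.64) and from 4.01 ± 0.388 to 1.12 ± 0.166 FPKM (-1.75), and both were called lower. Syk, the relative of Zap70 in B cells and myeloid cells, had 0.39, and Plcg2, the relative of Plcg1 in B cells, had 0.54 where Plcg1 had 0.24. Vav2 had 0.36 (limma adjusted p = 0.0055) and Vav3 -0.19 (limma adjusted p = 0.27), where Vav1 had 0.90. At 32.6 and 38.6 FPKM, Plcg1 remained above Plcg2 in every library, as counted in FPKM. Src and Yes1 fell in the same libraries as the 8 tested ID8 markers. The part of other cells in the values of these relatives was not tested.

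**Figure D4:**
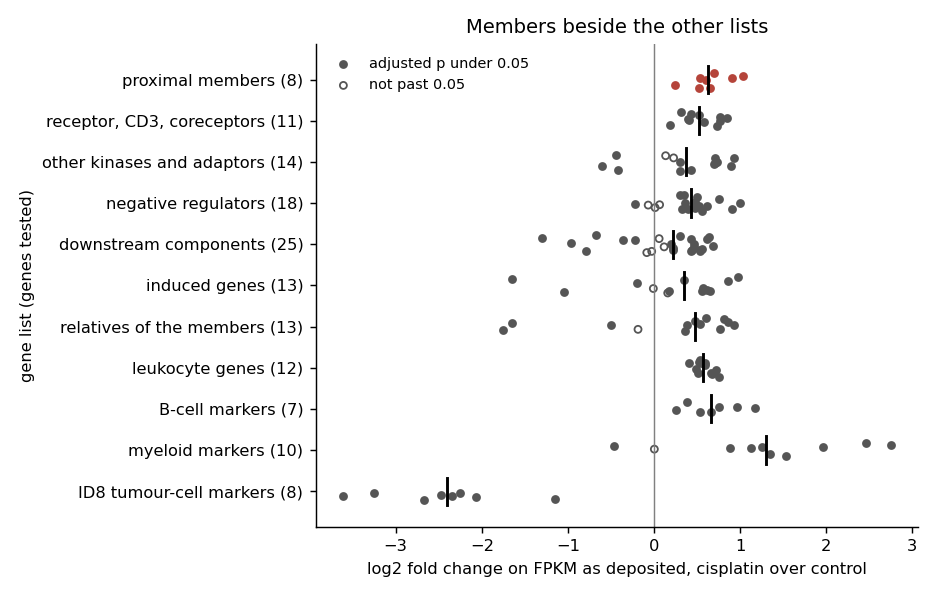
Log2 fold change of single genes in FPKM as deposited, cisplatin over control (horizontal axis), for the 8 proximal signalling genes (red) and other lists (grey), with filled points at an adjusted p under 0.05 and a bar at each list's median. The 8 genes have a median of 0.63, close to the 0.56 of the leukocyte genes and opposite to the -2.41 of the ID8 markers, and centred on T-cell identity genes the values of the 8 genes lie on both sides of 0.

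The genes whose profile over the 6 libraries was most like the median profile of the 8 genes were sought among 7657 protein-coding genes that averaged 5 FPKM or more, by the root mean square distance of the log2 values centred on each gene's mean. They were Fcho1, an adaptor of endocytosis (distance 0.0138), Il2ra, the alpha chain of the IL-2 receptor (0.0144), Ppp5c, a serine and threonine phosphatase (0.0152), Bcor, a corepressor (0.0179), and Il7r, the IL-7 receptor (0.0192). Their log2 fold changes ran from 0.60 to 0.64, close to the median of the 8 genes because of the way they were picked. The levels differed widely, from 14.1 ± 0.219 FPKM for Bcor to 67.7 ± 0.674 FPKM for Il7r in the control group.

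In the annotation 5 of the 8 genes (Lck, Lat, Lcp2, Ptpn6 and Plcg1) share exon bases with another gene, and strand use in the counting is not given in the sources used here. The largest share was 6.96% of the exon bases of Ptpn6, with Gm20531 on the other strand, followed by 6.32% of Lcp2 with 4930469K13Rik and 4.82% of Plcg1 with Zhx3. The overlapping genes were at 2.30 FPKM or less on average in either group, far below the genes they overlap.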

How the data were processed

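RNA was sequenced from 6 libraries, 3 per group, which were grouped by the treatment in the sample labels. The authors deposited FPKM values for 54532 genes, that is, counts scaled by gene length and by library, and 0 sample columns were left unmapped. The submitters' processing notes name fastp, HISAT2 2.0.5, featureCounts 1.5.0-p3 and the mm10 build, whereas the study's methods name LifeScope for alignment and counting. Which of them made the deposited FPKM values, and whether strand was used, is not given in the sources used here. Gene coordinates were equal to those of GENCODE M21 (GRCm38) for 32636 of the 33404 genes with reads found in both, and for all 8 genes described.

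Whole reads were rebuilt from FPKM, gene length and the smallest step of each library (tolerance 0.1 read). They cover counting error only. Differences were tested with limma 3.58.1 (R 4.3.3; lmFit, eBayes with trend) on log2(FPKM + 0.1), which understates the change of low genes, over the 15874 genes that averaged 0.5 FPKM or more, of 33456 with any read. Benjamini-Hochberg adjustment ran over all of them. A call also needed a fold change of at least 2. The fitting steps were tested on simulated reads with a small set of changed genes. That simulation held no shift in the mixture of cells, so it does not bear on the scaling between these libraries. Ratios to Lck were compared with two-sided exact permutation tests (scipy 1.17.1). Alternatives were other pseudocounts (1 and 0.01), other filters, TPM, median of ratios, quantile normalization, centring on gene lists, no variance trend, limma's voom on the rebuilt reads, leaving out each library and a replicate block. DESeq2, which the authors ran on raw counts, was not run here, and voom served as the test on reads.

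The genes and lists were chosen with earlier results of these data known. The genes named are the 8 genes, any gene of the lists, and the 5 genes with the nearest profile. Some genes of the lists are counted but not reported here by name. Promoter sequences were taken from RefSeq (GRCm38.p6). Pairs of libraries of a group were not copies of each other: their rebuilt reads differed by more than sampling noise (chi-square over its degrees of freedom, 5.35 to 6.44).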

Additional observations from a re-analysis of the deposited data

How the results depend on the processing

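Without centring, all 8 genes were higher and Ptpn6 was the 1 gene called under each of the 16 alternatives, with log2 fold changes of 1.02 to 1.12 for Ptpn6, 0.86 to 0.99 for Vav1 and 0.22 to 0.33 for Plcg1. Leaving out 1 library at a time kept 8 genes higher and 1 called, with 63 to 67 pathway genes higher and 16 lower. Quantile normalization moved the median of all tested genes from 0.03 to 0.16 and the split of all tested genes from 4360 higher and 4603 lower to 5884 and 3841. The divisor behind the deposited FPKM, as rebuilt, was 3.24e+07 to 3.31e+07 in the cisplatin and 3.00e+07 to 3.07e+07 in the control libraries. Reads on genes were 30847321 to 32169496 and 30606569 to 31255205. The divisor thus lay above the reads on genes in each cisplatin library and below them in each control library. It is therefore not a plain library size, and it scales the groups differently. Voom scales by the rebuilt reads in place of this divisor. With it, Lck was at 0.69 in place of 0.61 and Plcg1 at 0.33 in place of 0.24.

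The results that changed did so under centring. On the T-cell identity genes, 2 of the 8 genes were higher, 1 lower and 0 called, with 11 pathway genes higher and 54 lower, and the log2 fold changes of Lck, Zap70, Ptprc and Plcg1 were -0.0024, -0.0887, -0.0815 and -0.37. On the leukocyte genes, 2 were higher, 1 lower and 0 called, with 18 pathway genes higher and 52 lower, and Zap70, Ptprc and Plcg1 were at -0.0634, -0.0562 and -0.34. On the 4 CD3 chains, a choice made after the data were seen, 5 were higher, 1 lower and 0 called, with 24 pathway genes higher and 36 lower, Plcg1 was at -0.22, and of all tested genes, with a median of -0.44, 996 were higher and 9242 lower. The changes follow from the construction, since these lists themselves were higher as deposited.

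Replicate numbers are shared by the groups, but no source says that they mark a shared mouse or day, and the deviations of same-numbered libraries correlated at 0.023, -0.063 and -0.021. With the number as a replicate block, 8 genes were higher, 1 was called, and 65 pathway genes were higher and 16 lower. The 3 libraries per group set the smallest exact p of the ratios at 0.1. The number of cells behind each library is not in the table, so levels per T cell are not given.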
